A study of Mus musculus with 12 samples.

Results

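The knockout effect in mouse muscle was examined within sequencing lanes 3 and 4, in 6 NRF2-KO libraries set against 4 wild-type libraries. These 10 of the 12 libraries of the series were chosen by the lane number in their labels alone, and no measured value entered the choice. The other two are wild-type libraries from lanes 7 and 8, lanes that hold no KO library, so lane and genotype cannot be told apart there. The groups on lanes 3 and 4 were 3 NRF2-KO sedentary, 3 NRF2-KO treadmill, 2 wild-type sedentary and 2 wild-type treadmill libraries. Lane 3 carries KO sedentary 1 and 2, KO treadmill 1, wild-type sedentary 2 and wild-type treadmill 2. On lane 4 are KO sedentary 3, KO treadmill 2 and 3, wild-type sedentary 3 and wild-type treadmill 3. All samples came from muscle of 5-month-old male mice on a C57BL/6 background. The labels name neither the muscle, nor the exercise protocol, nor how the knockout allele was made, and they do not say that each library came from a separate animal. P-values therefore measure the spread between these libraries.

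Nfe2l2 codes for NRF2. KEAP1 holds this transcription factor in the cytoplasm and marks it for degradation. Under oxidative or electrophilic stress it escapes KEAP1, pairs with small MAF proteins and binds antioxidant response elements near genes of glutathione and thioredoxin metabolism, detoxification, iron handling and NADPH supply. BACH1 competes for the same elements and represses many of these genes. In skeletal muscle the pathway is known for its role in the handling of oxidants produced during contraction.

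Total counts ran from 21232040 to 27416622 per library, and 13841 of the 47729 genes of the table passed the filter on low counts. Log2 CPM correlated at 0.9875 to 0.9932 between pairs of the 10 libraries. CPM is the count relative to the library's size, scaled here by the library total and its normalization factor. Fast-fibre markers far exceeded slow-fibre ones: 12 fast-fibre markers summed to 132000 to 154000 CPM in KO and 132000 to 147000 CPM in wild type, and 10 slow-fibre markers to 652 to 992 CPM in KO and 660 to 1090 CPM in wild type. The 13 mitochondrially encoded mRNAs summed to more, 203000 to 239000 CPM in KO and 218000 to 243000 CPM in wild type. Neutrophil and lymphocyte markers were near 0, at no more than 1.36 and 1.42 CPM summed over 8 and 10 genes, and none of them passed the filter. Library preparation did not mark strand, so reads of a gene and of an overlapping gene on the opposite strand cannot be separated.

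The targeted gene carried its label in each of the 10 libraries. Nfe2l2 (ENSMUSG00000015839, GRCm38 chromosome 2, 75675513 to 75704641, minus strand) had 2.55, 2.11 and 2.12 CPM in KO sedentary muscle and 2.69, 2.68 and 3.18 CPM in KO treadmill muscle, against 41.2 and 37.3 CPM in wild-type sedentary and 41.2 and 34.7 CPM in wild-type treadmill muscle. No KO library came near a wild-type one. The level was 15.1-fold lower in KO (log2 fold change -3.92, SE 0.09, adjusted p = 4.36e-12). Counts are given per gene, and the labels do not say which part of the gene was removed.

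With lane and exercise state as terms, 237 of 13841 genes changed (1.71%), of which 102 rose in KO (0.737%) and 135 fell (0.975%). Most changes were small, with a median log2 fold change of 0.38 among genes that rose and -0.39 among those that fell. Only 4 genes rose and 15 fell by more than 2-fold, while 86 of the risen and 93 of the fallen genes moved by less than 1.5-fold. The 6 KO and 4 wild-type libraries did not overlap in 181 of the 237 (64 that rose, 117 that fell), against 561 of all 13841 genes (4.05%). The count leaned on single libraries: it was 83 without wild-type treadmill 2, 132 without wild-type sedentary 2, 134 without KO treadmill 1 and 142 without KO sedentary 1. A total of 72 genes kept their call without each of the 10 libraries in turn, 12 that rose and 60 that fell.

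Transcripts of the NRF2 programme were among the largest falls. Of 42 listed NRF2 targets, 37 passed the filter, 18 fell and 1 rose (all genes tested: 0.975% fell, 0.737% rose). The median log2 fold change was -0.27 over the 37, against 0.007 over all genes tested. All 18 that fell were free of overlap between the genotypes, against 181 of all 237 called genes and 4.05% of all genes tested. Of the 18, 17 kept the call without each library in turn. Prdx1, a peroxiredoxin, lost it without wild-type treadmill 2 (adjusted p = 0.0554). Lane 3 alone called 10 of 38 targets tested there lower (all genes tested there: 0.301%), and lane 4 alone called 10 of 37 (0.26%). The 10 of each lane were among the 18, a description only, since both lanes entered the joint fit. Summed over the list, levels were 2360 to 2530 CPM in KO and 2790 to 3060 CPM in wild type.

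Among the NRF2 targets the largest falls were in Gsta3, Nqo1, Osgin1 and Aox1. Nqo1, a quinone reductase (ENSMUSG00000003849, chromosome 8, 107388225 to 107403206), had 9.89 CPM as the median of the KO libraries, with a lowest of 8.93 and a highest of 10.1, against 37.4, 39.3, 43.4 and 29.6 CPM in wild type. Every KO library lay far below every wild-type one, and the level was 3.83-fold lower in KO (log2 fold change -1.94, SE 0.08, adjusted p = 6.33e-09). Aox1, an aldehyde oxidase (chromosome 1, 58029931 to 58106413), had 8.53 to 11.2 CPM in KO with a median of 9.76, against 35.6, 33.4, 35.6 and 26.3 CPM in wild type. It too showed a gap between the genotypes much wider than either group's spread, 3.31-fold lower in KO (adjusted p = 6.04e-09). Osgin1, a growth inhibitor induced by oxidative stress, had 2.81 to 3.63 CPM in KO with a median of 3.33, against 14.3, 11.7, 11.4 and 11.2 CPM in wild type. Wild-type sedentary 2 stood above the other wild-type libraries, and the 3.68-fold lower level in KO was called without it as well. The glutathione S-transferase Gsta3 was the most reduced target at a low level, with 0.383 to 0.768 CPM in KO and 2.94, 3.36, 6.53 and 4.60 CPM in wild type (log2 fold change -2.87, SE 0.18, adjusted p = 4.59e-07).

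Members of the thioredoxin and glutathione systems fell by smaller factors. Srxn1, sulfiredoxin, which restores overoxidized peroxiredoxins, had 11.3 to 13.1 CPM in KO, against 24.9, 27.6, 25.3 and 25.5 CPM in wild type. The wild-type libraries were nearly level and all stood above the KO libraries (2.14-fold lower in KO, adjusted p = 3.53e-08). Txnrd1, the cytosolic thioredoxin reductase, had 37.2 to 41.0 CPM in KO, against 72.4, 70.4, 76.6 and 63.6 CPM in wild type (1.81-fold lower, adjusted p = 7.75e-07). Gclc, the catalytic subunit of the first enzyme of glutathione synthesis, had 9.42 to 11.9 CPM in KO and 18.2, 16.4, 17.5 and 17.0 CPM in wild type (1.64-fold lower, adjusted p = 6.28e-05). Its modifier subunit Gclm was not called: it had 17.9 to 23.3 CPM in KO and 27.2, 23.1, 23.8 and 19.3 CPM in wild type, and the groups overlapped (log2 fold change -0.21, SE 0.08, adjusted p = 0.193). Txn1, Gsr, Gstm1 and Gstp1, which encode thioredoxin, glutathione reductase and a pair of glutathione transferases, fell by 0.43, 0.44, 0.71 and 0.40 on the log2 scale. Of the exon sequence of Gstm1 and Gstp1, 28.8% and 38.5% recurs in transcripts of other genes in 31-base stretches, so their counts are less certain.

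Iron handling and NADPH supply were represented by a few targets. Slc40a1, the iron exporter ferroportin, had 15.8 to 21.7 CPM in KO, against 41.1, 37.2, 42.3 and 28.5 CPM in wild type (2.02-fold lower, adjusted p = 0.000286). Its log2 fold change was -1.35 in lane 3 and -0.64 in lane 4, and it passed in both. Ftl1, the ferritin light chain, fell by 0.47 on the log2 scale, with 64.1% of its exon sequence shared with other genes and 26.5% overlapping an opposite-strand exon. Hmox1, which releases iron from haem, overlapped between the genotypes and was not called (4.72 to 7.06 CPM in KO, 5.93 to 7.82 CPM in wild type, adjusted p = 0.33). The malic enzyme Me1, a source of NADPH, fell by 0.27, with 36.9% shared sequence. Ugdh, a UDP-glucose dehydrogenase, was the 1 target that rose, by 0.38 on the log2 scale (SE 0.09, adjusted p = 0.044), and it lost the call without 8 of the 10 libraries.

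Among 12 genes of the NRF2 machinery, 3 fell and 0 rose (all genes tested: 0.975% fell, 0.737% rose). They were Nfe2l2, which is the targeted gene itself, Bach1 and Mafg. Mafg is also on the list of NRF2 targets and was counted there among those that fell. Bach1, the competing repressor, had 22.8 to 29.5 CPM in KO and 43.9, 35.1, 39.6 and 32.1 CPM in wild type (log2 fold change -0.53, SE 0.08, adjusted p = 0.00479). Mafg, a small MAF partner, had 43.0 to 49.1 CPM in KO and 61.4, 61.6, 61.2 and 54.4 CPM in wild type (log2 fold change -0.40, SE 0.05, adjusted p = 0.00137). For both, the lowest wild-type library was above the highest KO library. Keap1 had 36.2 to 39.9 CPM in KO and 38.6 to 45.8 CPM in wild type and was not called (log2 fold change -0.18, SE 0.06, adjusted p = 0.131).

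Promoters of fallen NRF2 targets are shown because the element NRF2 is known to bind could be searched in them. The search used TGACNNNGC on either strand in windows of 300 bases, 250 before to 50 after each start, from RefSeq on GRCm38.p6. It matched in 8 of the 15 fallen NRF2 targets with a window (53.3%), in 13 of the 30 NRF2 targets tested with a window (43.3%), in 22 of 109 fallen genes (20.2%), in 10 of 76 risen genes (13.2%) and in 1765 of 10299 genes tested (17.1%). A gene counted if any of its windows matched, so genes with more starts had more chances, and the sets were not evened out for this. Counted by window, 4071 of 32851 matched (12.4%). Capitals mark the matched bases, each stretch is written along the gene's own strand, and a match is a description of letters only.
Srxn1, chr2:152105526-152105573, plus strand: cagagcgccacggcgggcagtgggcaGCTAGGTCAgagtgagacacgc
Txnrd1, chr10:82859088-82859148, plus strand: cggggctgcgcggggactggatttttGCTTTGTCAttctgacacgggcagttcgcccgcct
Pir, chrX:164269191-164269251, plus strand: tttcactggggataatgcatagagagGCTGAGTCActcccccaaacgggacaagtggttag
Pir, chrX:164269424-164269480, plus strand: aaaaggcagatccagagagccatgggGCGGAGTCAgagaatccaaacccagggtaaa
Mafg, chr11:120633735-120633795, minus strand: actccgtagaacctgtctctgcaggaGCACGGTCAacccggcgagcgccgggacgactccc
The window of Pir, which encodes the iron-binding nuclear protein pirin, held both of its matches in different places. Its level was 1.97 to 2.86 CPM in KO and 6.21, 6.43, 5.36 and 4.68 CPM in wild type (2.38-fold lower, adjusted p = 0.00015).

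**Figure D1:**
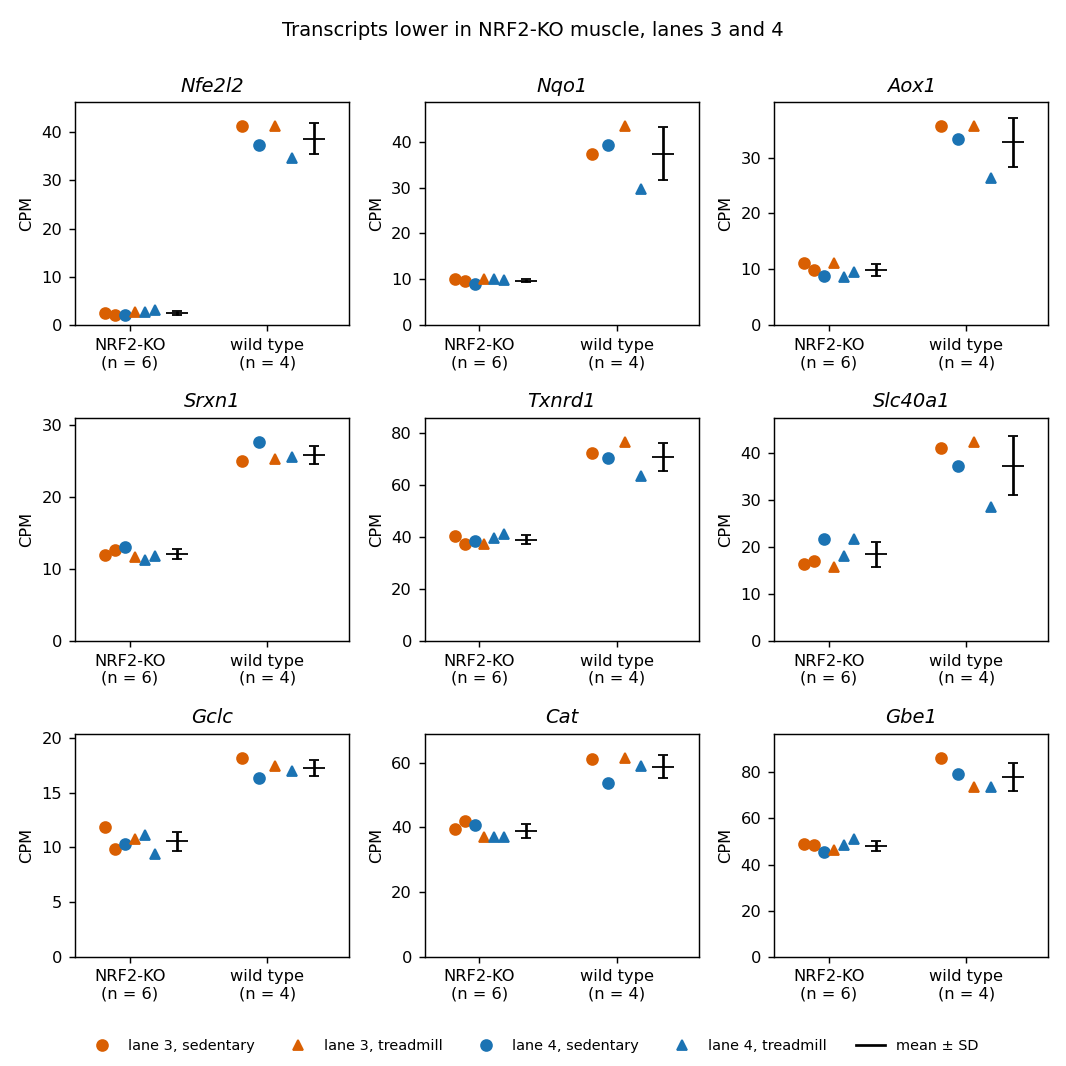
Level in CPM (y axis, from 0) of 9 genes that fell, with NRF2-KO libraries (n = 6) left of wild-type libraries (n = 4); colour gives the lane, shape the exercise state, and the bar beside each group its mean and SD. No KO library reaches a wild-type library in any of the 9 panels, and the fall spans both lanes and both exercise states.

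Of 24 general antioxidant enzymes tested outside the NRF2 list, 1 rose and 2 fell, against 0.737% and 0.975% of all genes tested, and their median log2 fold change was -0.07. Cat, catalase, had 36.9 to 42.0 CPM in KO and 61.2, 53.7, 61.5 and 58.9 CPM in wild type, with no overlap (log2 fold change -0.60, SE 0.05, adjusted p = 2.8e-05). Gpx4, which reduces lipid peroxides, had 55.6 to 65.3 CPM in KO and 70.1 to 73.5 CPM in wild type (log2 fold change -0.29, adjusted p = 0.0131); the call was lost without wild-type treadmill 2 (adjusted p = 0.0765), and 38.9% of its sequence is shared. In the other direction, Gpx3, the secreted glutathione peroxidase, had 203 to 264 CPM in KO with a median of 230 and 172, 161, 194 and 188 CPM in wild type. All KO libraries exceeded all wild-type ones, by 1.29-fold on average (log2 fold change 0.37, SE 0.07, adjusted p = 0.00985).

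Glycogen metabolism held the strongest rise. Gys2, the glycogen synthase isoform known from liver (ENSMUSG00000030244, chromosome 6, 142422613 to 142473109), had 2.17, 3.00 and 3.50 CPM in KO sedentary and 2.76, 2.41 and 3.14 CPM in KO treadmill muscle, against 0.531 and 0.714 CPM in wild-type sedentary and 0.925 and 0.794 CPM in wild-type treadmill muscle. The level was low in both genotypes, on 51 to 96 reads per KO library and 13 to 19 per wild-type library, but the groups were far apart (3.86-fold higher in KO, log2 fold change 1.95, SE 0.20, adjusted p = 7.63e-05). Its log2 fold change was 1.92 in lane 3 and 2.03 in lane 4. Gbe1, the glycogen branching enzyme, moved the other way, with 45.4 to 51.3 CPM in KO and 86.3, 79.3, 73.5 and 73.6 CPM in wild type (1.62-fold lower, adjusted p = 7.32e-06). Phka1, a regulatory subunit of phosphorylase kinase in muscle, had 632 to 801 CPM in KO and 1070, 939, 1030 and 964 CPM in wild type (1.42-fold lower, adjusted p = 0.00138). No other of the 26 glycolysis and glycogen genes was called, so 1 rose and 2 fell (all genes tested: 0.737% rose, 0.975% fell).

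Further large falls lay outside the NRF2 list. Insyn1, listed with the dystrophin complex, had 3.78 to 4.78 CPM in KO and 11.7, 11.1, 10.2 and 8.48 CPM in wild type (2.51-fold lower, adjusted p = 6.39e-07). Bcl2, an inhibitor of apoptosis, had 5.69 to 10.7 CPM in KO and 17.8, 17.1, 22.8 and 13.1 CPM in wild type (2.12-fold lower, adjusted p = 0.00422). Neither gene had a KO library above a wild-type one, which was a condition for naming genes by fold change. Vwa7, with 12.7% of its exon bases overlapping an opposite-strand exon, was 1.78-fold lower and Dapp1, an adaptor in phosphoinositide signalling, 1.85-fold lower; Dapp1 lost its call without wild-type treadmill 2 (adjusted p = 0.0591). The following were chosen after their values were seen, for holding in both lanes separately: Creld1, Dusp13, a phosphatase, Cd151, a tetraspanin, Cdk19, a kinase of the Mediator complex, and Cst6, a cystatin, fell by 0.80, 0.77, 0.72, 0.61 and 0.67 on the log2 scale, with no overlap of the genotypes in any of them. For Dusp13, 10.2% of the exon bases overlap an opposite-strand exon. Hspb8, a small heat shock protein, was the 1 called gene of 25 chaperones (all genes tested: 1.71% called). It had 340 to 399 CPM in KO and 460, 487, 420 and 463 CPM in wild type (log2 fold change -0.31, adjusted p = 0.00375). Of 21 atrophy and autophagy genes, 3 fell and 1 rose (all genes tested: 0.975% fell, 0.737% rose). Map1lc3a, Fbxo40 and Eif4ebp1 fell by 0.28, 0.28 and 0.31 and Cdkn1a rose by 0.58. Fbxo40 lost its call without 6 libraries and Eif4ebp1 without 4.

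Genes that rose included receptors, secreted proteins and matrix proteins. Lepr, the leptin receptor, had 6.34 to 8.99 CPM in KO with a median of 7.49 and 4.74, 4.79, 6.04 and 4.64 CPM in wild type (1.51-fold higher, adjusted p = 0.00894). Thbs2, a thrombospondin of the matrix, had 17.8 to 25.8 CPM in KO and 14.1, 14.1, 15.6 and 12.3 CPM in wild type (1.5-fold higher, adjusted p = 0.00593). In both, the lowest KO library was above the highest wild-type library, which was a condition for naming genes by fold change. The call of both held without each library in turn. The same held for Pcolce2, an enhancer of procollagen processing, for Itgbl1 and for Tmem9, with log2 fold changes of 0.48, 0.50 and 0.52. Ostn, which encodes the muscle-secreted peptide osteocrin, had 133 to 172 CPM in KO and 91.3, 113, 117 and 73.5 CPM in wild type (1.54-fold higher, adjusted p = 0.0133); its call was lost without wild-type sedentary 2 (adjusted p = 0.0531), and 12.9% of its exon bases overlap an exon on the opposite strand. Tiam1, an activator of the GTPase Rac, Il33, a cytokine, and Dpp4, a membrane peptidase, rose by 0.46, 0.48 and 0.47 and each lost the call without wild-type treadmill 2, at adjusted p = 0.0766, 0.0761 and 0.102. Mmrn1, Aif1l and Qpct rose by 0.51, 0.47 and 0.47 and lost it without 4, 8 and 8 libraries. Among 17 genes tested from a list of myokines and secreted factors, Ostn and Gdf11 rose (all genes tested: 0.737% rose, 0.975% fell). The 1 gene of that list that fell was Musk, which encodes not a secreted factor but the agrin receptor kinase of the neuromuscular junction. Gdf11 lost its call without 8 libraries and Musk without 2, wild-type sedentary 2 and 3.

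**Figure D2:**
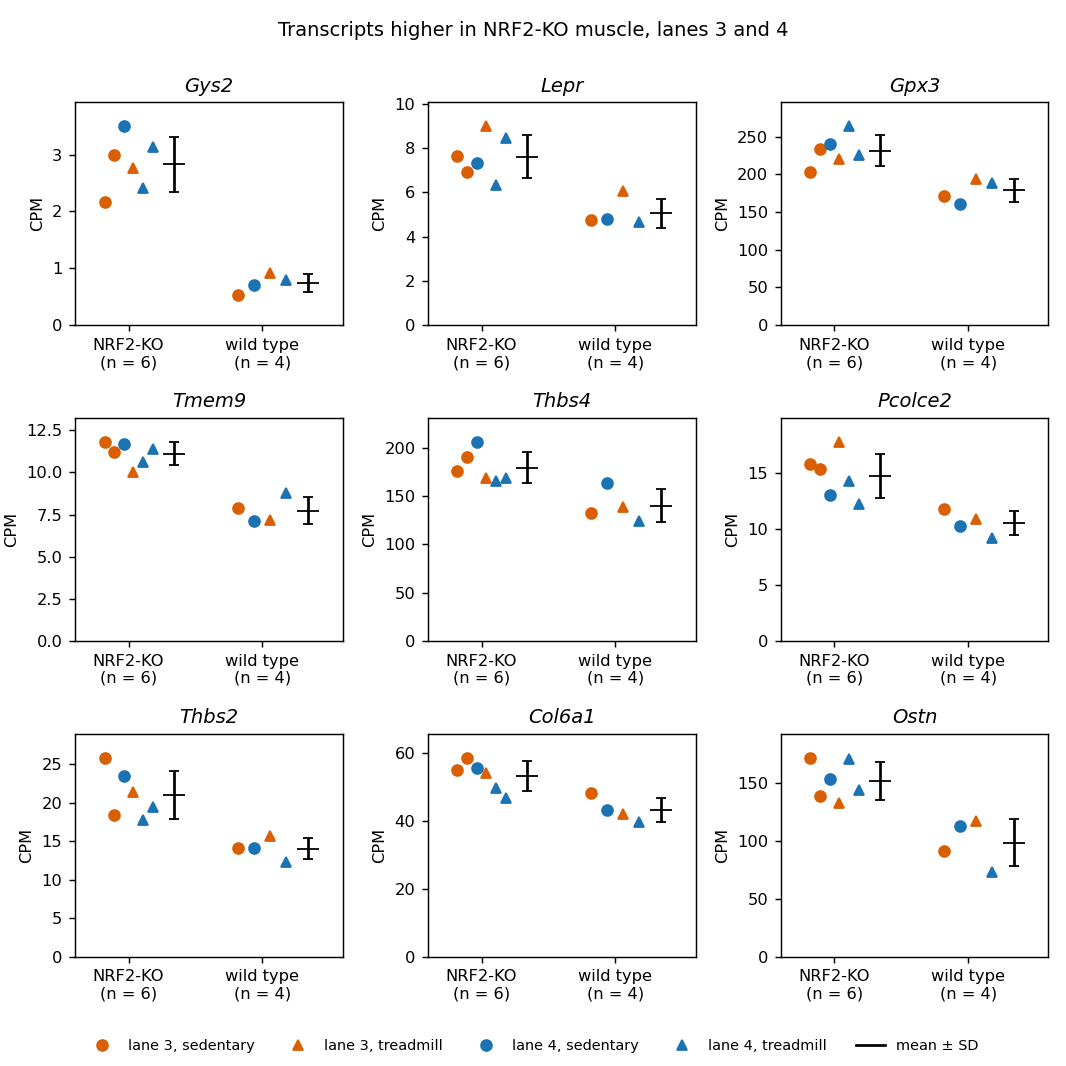
Level in CPM (y axis, from 0) of 9 genes that rose, with NRF2-KO libraries (n = 6) left of wild-type libraries (n = 4); colour gives the lane, shape the exercise state, and the bar beside each group its mean and SD. Gys2 shows the widest gap, 2.17 to 3.50 CPM in KO against 0.531 to 0.925 CPM in wild type, whereas for Col6a1 the lowest KO library lies below the highest wild-type library.

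Fold changes of the extracellular matrix genes were all above 0, and the number called varied with the libraries used. Of 26 matrix genes tested, 4 rose and 0 fell (all genes tested: 0.737% rose, 0.975% fell); 26 of 26 fold changes were above 0, with a median of 0.25, against 51.9% above 0 over all genes tested. The 4 were Col6a1 and Col6a3, chains of collagen VI, Fn1, fibronectin, and Timp2, an inhibitor of metalloproteinases, and in each of them the genotypes overlapped. Col6a1 (chromosome 10, 76708792 to 76726168) had 46.7 to 58.6 CPM in KO with a median of 54.7, against 48.2, 43.3, 42.1 and 39.7 CPM in wild type (log2 fold change 0.30, SE 0.05, adjusted p = 0.00593). Fn1 had 58.9 to 89.7 CPM in KO and 62.3, 66.5, 38.9 and 49.6 CPM in wild type (log2 fold change 0.52, SE 0.11, adjusted p = 0.026). Only Col6a1 of the 4 kept its call without each library in turn; Fn1 lost it without 3, Col6a3 without 4 and Timp2 without 8. Leaving out 1 library gave 1 called matrix gene (without wild-type treadmill 2, with 24 of 26 above 0) to 9 (without KO treadmill 3). DESeq2 called 9, and the fit with no low-count filter called 18.

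Markers of other cell types are given beside the matrix. Over all genes tested, 0.737% rose and 0.975% fell. Macrophage and antigen presentation markers summed to 412, 530 and 409 CPM in KO sedentary and 424, 364 and 284 CPM in KO treadmill muscle, against 286 and 466 CPM in wild-type sedentary and 234 and 282 CPM in wild-type treadmill muscle. The ranges overlapped, with wild-type sedentary 3 above most KO libraries; 16 of 16 fold changes were above 0 (median 0.37), and 0 were called. Fibroblast markers summed to 2510 to 2970 CPM in KO and 2120 to 2520 CPM in wild type, overlapping at the edge, with 12 of 12 above 0 and 1 called, Fbln1, which lost its call without 9 libraries. Tenocyte markers summed to 359 to 470 CPM in KO and 263 to 346 CPM in wild type without overlap, with 9 of 9 above 0; Thbs4, a thrombospondin of tendon, and Col12a1 rose by 0.36 and 0.48, Col12a1 losing its call without 8 libraries. Schwann cell markers summed to 91.1 to 104 CPM in KO and 66.7 to 89.6 CPM in wild type, with 9 of 9 above 0 and Pmp22, a myelin protein, called, a call lost without wild-type treadmill 2 (adjusted p = 0.0701). Adipocyte markers summed to 285 to 731 CPM in KO and 274 to 442 CPM in wild type, with 9 of 9 above 0, a median of 0.27 and 0 called. Without KO sedentary 2, the library at 731 CPM, 5 of 9 were above 0 (median 0.11), and without wild-type sedentary 2, 6 of 9 were (median 0.09). The calls moved with the settings. With no low-count filter, 14 macrophage, 10 fibroblast, 5 tenocyte, 3 Schwann cell and 4 adipocyte markers rose. DESeq2 called 2, 4, 2, 1 and 0 of them higher, in that order of lists. No defining marker of these lists was at 0 in all 10 libraries. In bulk tissue more cells of a type and more RNA per cell cannot be told apart, and the part of these cell types in the matrix result was not tested.

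**Figure D3:**
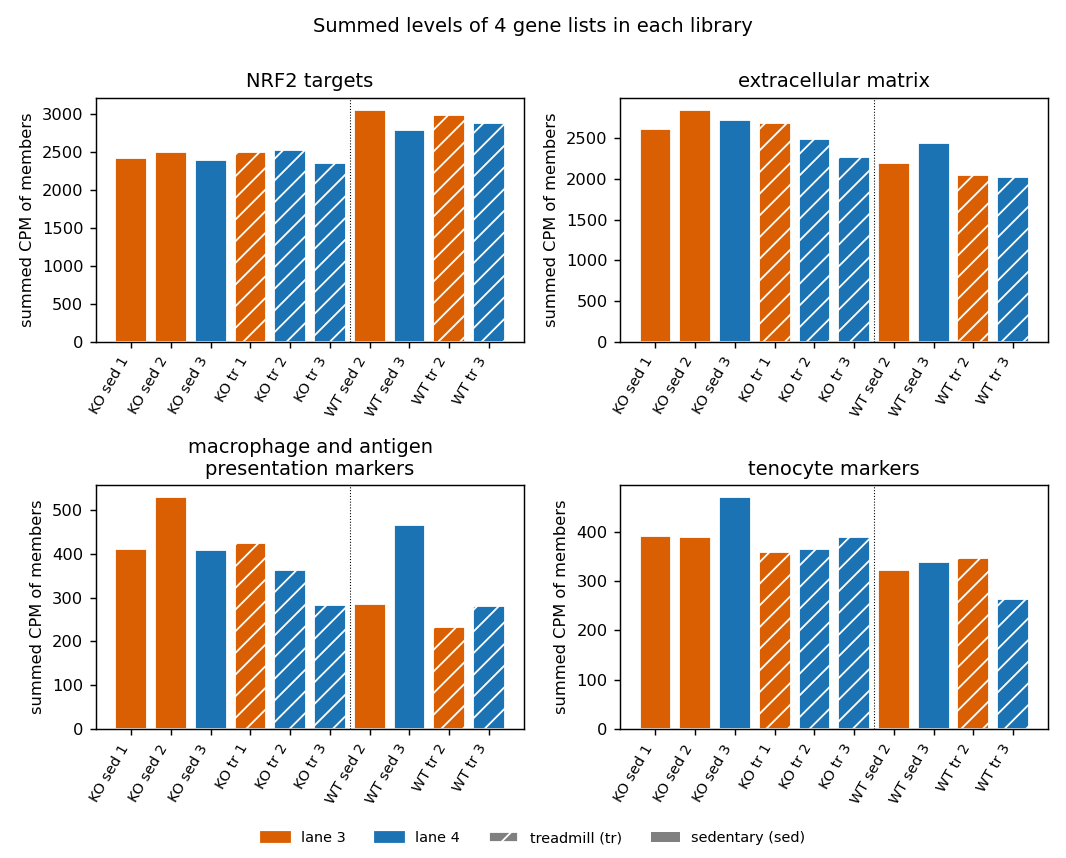
Summed CPM of the members of 4 gene lists (y axis, from 0) in each of the 10 libraries (x axis, NRF2-KO left of the dotted line, wild type right); colour gives the lane and hatching the treadmill libraries. NRF2 targets sum to 2360 to 2530 CPM in KO, below all wild-type libraries (2790 to 3060 CPM), whereas macrophage markers overlap between the genotypes, with wild-type sedentary 3 at 466 CPM.

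The lanes were then read separately, since they share no library. Lane 3 alone (3 KO against 2 wild-type libraries) called 77 of 13976 genes (0.551%), 35 that rose (0.25%) and 42 that fell (0.301%), and lane 4 alone (3 against 2) called 49 of 13865 genes (0.353%), 13 that rose (0.0938%) and 36 that fell (0.26%). Of the 77 genes of lane 3, 65 had the same sign in lane 4 and 42 (54.5%) also had an unadjusted p under 0.05 there with that sign, a p that 5.65% of all genes reached. Of the 49 of lane 4, 40 had the same sign in lane 3 and 35 (71.4%) reached such a p there, against 12.9% of all genes. Over all 13692 genes tested in both, 60.8% had the same sign, and fold changes across genes correlated at 0.288 (Pearson) and 0.279 (Spearman). A total of 25 genes were called in both lanes: 24 fell and 1, Gys2, rose. The 24 include Nfe2l2, Nqo1, Aox1, Osgin1, Srxn1, Txnrd1, Gclc, Gsta3, Gstm1, Pir, Slc40a1, Cat and Gbe1. All 237 genes of the joint fit had the same sign in both lanes, a description only, since both lanes entered that fit.

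**Figure D4:**
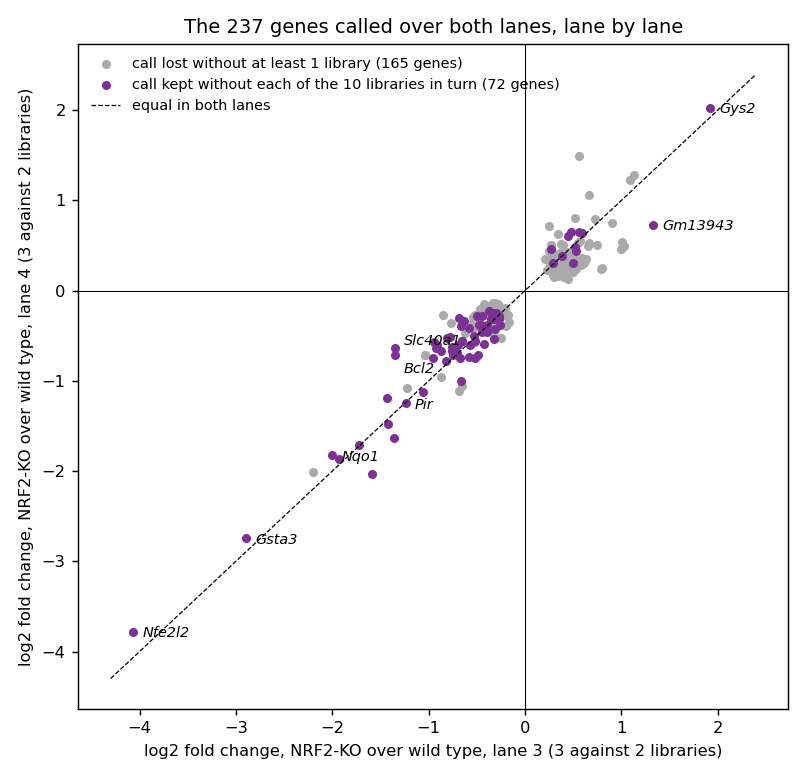
Log2 fold change, NRF2-KO over wild type, in lane 3 (x axis) and lane 4 (y axis) for the 237 genes called over both lanes; the dashed line marks equal values, and purple points are the 72 genes whose call held without each library in turn. The points lie in the lower left and upper right quadrants, with Nfe2l2 at -4.06 and -3.78 and Gys2 at 1.92 and 2.03.

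The medians of the lists were read in each lane as a description. Over all genes tested, 0.551% were called in lane 3 alone and 0.353% in lane 4 alone. The NRF2 targets had a median log2 fold change of -0.27 in lane 3 and -0.30 in lane 4. For the matrix genes the medians were 0.34 and 0.13, with 5 genes called in lane 3 and 0 in lane 4. All 26 were above 0 in lane 3, and 18 of 26 in lane 4. Macrophage markers stood at 0.73 in lane 3, with 8 of 16 called, and at 0.05 in lane 4, with 0 called. Adipocyte markers stood at 0.47 and 0.00. Tenocyte markers stood in the opposite order, with 0.05 in lane 3 and 0.50 in lane 4, where 4 of 9 were called. Schwann cell markers stood at 0.30 in both lanes.

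**Figure D5:**
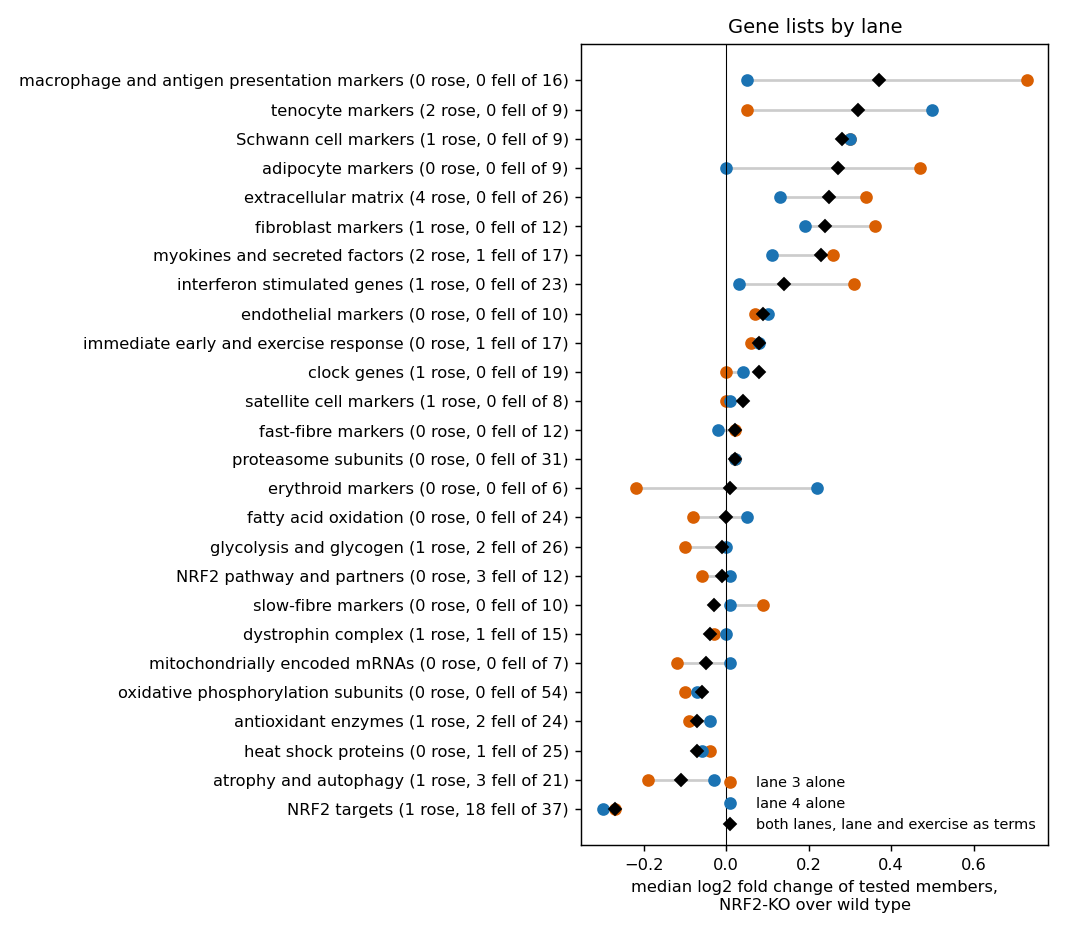
Median log2 fold change, NRF2-KO over wild type (x axis), of the tested members of 26 gene lists (y axis, with the numbers that rose and fell), from both lanes together (diamonds) and from lane 3 and lane 4 alone (circles). NRF2 targets lie at -0.27 to -0.30 in all 3 fits, while macrophage markers range from 0.05 in lane 4 to 0.73 in lane 3.

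No gene passed the test of whether the knockout effect differed between the lanes (edgeR, 0 of 13841, 0%; 647 had an unadjusted p under 0.05, and DESeq2 called 11). The smallest p-values belonged to mt-Tc, mt-Ta, Myh3, mt-Rnr2 and Ctss, given as values. mt-Ta, a mitochondrial tRNA, had 86.7, 96.9 and 86.5 CPM in KO libraries and 133 and 122 CPM in wild-type libraries of lane 3, and 106, 105 and 101 CPM in KO and 90.7 and 93.2 CPM in wild type of lane 4. KO was lower in lane 3 and higher in lane 4 (difference of log2 fold changes, lane 4 minus lane 3, 0.70, SE 0.10, adjusted p = 0.0579). Ctss, a cathepsin of macrophages, had 17.0, 20.7 and 15.9 CPM in KO and 10.1 and 7.99 CPM in wild type in lane 3, and 14.7, 12.5 and 10.5 CPM in KO and 16.7 and 10.7 CPM in wild type in lane 4 (difference -0.98, SE 0.18, adjusted p = 0.228). The genotypes were apart in lane 3 and overlapped in lane 4.

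Whether exercise altered the knockout effect was tested in the same way, with 0 genes called by edgeR (0%; 705 had an unadjusted p under 0.05, and DESeq2 called 4). The smallest p-values belonged to Arrdc2, Fabp3, Ide, Cacna2d4 and Per1. Arrdc2, an arrestin-domain protein, had 87.2, 39.2 and 43.9 CPM in KO treadmill and 40.2 and 13.7 CPM in wild-type treadmill muscle, and 59.1, 39.8 and 19.5 CPM in KO sedentary and 48.4 and 27.8 CPM in wild-type sedentary muscle. Values overlapped within each exercise state (difference of log2 fold changes, treadmill minus sedentary, 1.56, SE 0.23, adjusted p = 0.178). The NRF2 targets were low in KO muscle in both exercise states, with sums of 2430, 2500 and 2400 CPM in KO sedentary against 3060 and 2790 CPM in wild-type sedentary, and 2500, 2530 and 2360 CPM in KO treadmill against 2990 and 2890 CPM in wild-type treadmill muscle.

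The wild-type libraries of lanes 7 and 8 were set beside these values on a common scale of 12 libraries. When they joined the fit without a lane term, 152 of 13693 genes were called, 35 that rose and 117 that fell; the 12-library fit shares all 10 libraries with the main one. It had 111 calls in common with the 237, and the 126 called only within lanes 3 and 4 were 79 that rose and 47 that fell. With lane as a term the 12-library fit called 235, of which 233 were shared. Lanes 7 and 8 hold 1 library each, so the lane term fits each of them exactly and they add nothing on genotype. That agreement was set by the design. Of the NRF2 targets, 16 of 37 were called lower when the 12 libraries were fitted without lane. Of the matrix genes, 0 of 26 were called there, 15 of 26 were above 0, and the median was 0.00. In that fit, 7 of 12 fibroblast and 11 of 16 macrophage markers were above 0, each list with a median of 0.04. Tenocyte, adipocyte and Schwann cell markers had 9, 8 and 8 of 9 above 0, with medians of 0.33, 0.23 and 0.18.

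Some genes called here lost their call over 12 libraries without a lane term. Pcolce2, Fn1, Col6a1, Thbs2 and C3 are given as examples, chosen after their values were seen. Pcolce2 had 12.5 to 18.1 CPM in KO and 9.40 to 12.0 CPM in wild type of lanes 3 and 4, but 20.9 and 22.7 CPM in wild type of lanes 7 and 8. Those libraries exceeded every KO library, and the log2 fold change was 0.48 within lanes 3 and 4 and 0.04 over 12 libraries without a lane term. Fn1 had 59.8 to 91.2 CPM in KO and 39.4 to 67.7 CPM in wild type of lanes 3 and 4, with 106 and 139 CPM in wild type of lanes 7 and 8 (log2 fold change 0.52 and 0.02). C3, the central complement component, had 79.6 to 131 CPM in KO and 53.8 to 81.0 CPM in wild type of lanes 3 and 4, with 127 and 147 CPM in wild type of lanes 7 and 8 (0.53 and 0.10). For Gpx3 the lane 7 and 8 libraries, at 188 and 190 CPM, lay within the wild-type range of 164 to 196 CPM, and the log2 fold change was 0.37 and 0.35. Genes called over the 12 libraries without lane, but not here, included Txn-ps1, Uts2b, Gaa, Uqcc3, Tmcc2, Itgb5, Map3k10 and Ubb, whose adjusted p here ran from 0.051 to 0.0666. Whether lane, sample or animal sets the higher level of Pcolce2, Fn1, Col6a1, Thbs2 and C3 in wild type of lanes 7 and 8 cannot be told apart.

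Genes close to Nfe2l2 on chromosome 2 were counted separately, with no test of the shares. Within 20 Mb, 12 of 182 genes changed (6.59%), against 224 of 13629 elsewhere (1.64%). Gm13943, 1.61 Mb away, had 3.25 to 5.77 CPM in KO and 2.0, 2.31, 2.0 and 2.76 CPM in wild type (log2 fold change 1.02, SE 0.15, adjusted p = 0.00375). Itgb6, an integrin chain 15 Mb away, had 20.6 to 30 CPM in KO and 36.9, 39.2, 34.4 and 38.9 CPM in wild type (log2 fold change -0.59, SE 0.09, adjusted p = 0.00375). Neither gene had overlapping genotypes. E030042O20Rik lies 0.000129 Mb from Nfe2l2 on the opposite strand and was low, with 0.109 to 0.384 CPM in KO and 0.627 to 0.859 CPM in wild type (log2 fold change -1.80, SE 0.30, adjusted p = 0.00704). Lnpk, Fastkd1 and Scn7a rose by 0.27, 0.32 and 0.29, and Pdk1, a pyruvate dehydrogenase kinase, and Xirp2, a muscle actin-binding protein, fell by 0.23 and 0.26; Lnpk and Pdk1 lost the call without 2 libraries, Fastkd1 and Scn7a without 7 and Xirp2 without 8.

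Other lists held few or no calls, where 1.71% of all genes tested were called. Of 54 nuclear subunits of oxidative phosphorylation, 0 were called, 52 were below 0 and the median was -0.06; their sums were 19800 to 22800 CPM in KO and 21200 to 23000 CPM in wild type and overlapped. None of 7 mitochondrially encoded mRNAs tested, 24 genes of fatty acid oxidation, 31 proteasome subunits, 12 fast-fibre, 10 slow-fibre, 10 endothelial and 6 erythroid markers was called at an adjusted p under 0.05 in edgeR. Single calls were Parp14 among 23 interferon-stimulated genes, Bhlhe40, a repressor of the clock, among 19 clock genes, Vcam1 among 8 satellite cell markers, Sntb1 beside Insyn1 in the dystrophin complex, all higher in KO, and Esrra, a nuclear receptor of mitochondrial biogenesis, among 17 exercise-response genes, lower in KO. Parp14 and Esrra lost the call without 2 libraries, Bhlhe40 and Sntb1 without 5 and Vcam1 without 8. Outside the interferon list, Ifit3b, interferon-induced by its name, went the other way and is given after its values were seen. Its log2 fold change was -1.42 in lane 3 and -1.48 in lane 4, and each lane alone called it. Of its exon sequence, 55.3% is shared with other genes.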

How the data were processed

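RNA was sequenced from whole mouse muscle. Per the submitters' processing notes, STAR 2.4.1d and featureCounts 1.4.6-p4 were used, with bcl2fastq 1.8.4 and the GRCm38 build, and the authors deposited raw counts per Ensembl gene. Which annotation release and counting options were used is not given in the sources used here. Per the labels' protocols the TruSeq RNA kit v2 was used, a kit that does not mark strand.

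From the deposited counts of the 10 libraries, genes were kept by filterByExpr (minimum count 10, minimum total 15), which held 99.926% of the counts. The model had lane, exercise and genotype as terms, with TMM normalization and edgeR's quasi-likelihood test (edgeR 4.0.16, limma 3.58.1, R 4.3.3). P-values were Benjamini-Hochberg adjusted over all genes tested, and a gene was called at an adjusted p under 0.05. All adjusted p-values come from this test unless another tool is named. The same model was fitted in each lane alone, without the lane term, and with an interaction of genotype with lane or exercise. DESeq2 1.42.0, limma-voom, other normalizations, filters and terms, and leaving out each library were alternatives. On simulated counts for 13841 genes, the comparison of lanes 3 and 4 recovered 74.3% of genes changed 1.5-fold and 91.7% of those changed 2-fold. Of the calls on simulated counts, 6.04% were false. The simulation drew each gene independently and changed genes by 1.5-fold or 2-fold only. In the data, 86 of the risen and 93 of the fallen calls were under 1.5-fold, so these shares do not measure such calls. Sequence shared between genes was counted as 31-base stretches. Named genes were chosen by fixed rules on size, p and list membership: 12 by fold change in each direction without overlap of the genotypes, up to 4 per list, genes within 20 Mb of Nfe2l2, those that differ between fits of 10 and 12 libraries, and the 5 smallest p-values of each interaction. The members, lists and rules were chosen with earlier results of these data known. The authors' normalized table was not used here. Replicate numbers shared between groups were checked: deviations of same-numbered libraries from their group means correlated at -0.15 to 0.23. Libraries with different numbers were not compared and lane was not removed, so the check cannot exclude pairing. The numbers were not taken to pair samples.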

Additional observations from a re-analysis of the deposited data

Results flagged for a closer look

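In 12 of 210 groups checked (105 named genes in both genotypes, 5.71%), 1 library stood far from the others of its genotype: 2 of 105 KO groups of 6 libraries and 10 of 105 wild-type groups of 4. The threshold is Dixon's 95% critical value for each group size, by which chance flags about 1 group in 20. Among called genes, Osgin1 had 14.3 CPM in wild-type sedentary 2 where the rest of its genotype had 11.2 to 11.7 CPM, and Mafg 54.4 CPM in wild-type treadmill 3 against 61.2 to 61.6 CPM. Wild-type treadmill 2 was the high library for Lepr (6.04 CPM, others 4.64 to 4.79 CPM), Scn7a (20.4 CPM, others 16.6 to 17.1 CPM) and Gm11967 (6.91 CPM, others 5.6 to 5.72 CPM). Lnpk had 58.3 CPM in wild-type treadmill 3, with the others at 54.2 CPM. Among genes that were not called, Gaa (154 CPM) and Itgb5 (81.8 CPM) were high in wild-type sedentary 2, where the others had 118 to 124 and 66.2 to 68.3 CPM. Tmcc2 was low in wild-type sedentary 3 (63.1 CPM, others 67 to 67.2 CPM), and Lep was high in wild-type treadmill 2 (6.67 CPM, others 4.16 to 4.5 CPM). In KO muscle, Cox7a2 was high in treadmill 2 (246 CPM, others 205 to 218 CPM) and Atp5d low in treadmill 1 (162 CPM, others 181 to 188 CPM).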

How the results depend on the processing

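The 237 calls over both lanes became 812 with no low-count filter and 152 with all 12 libraries and no lane term. Other normalization (240), a filter at 1 CPM (222), limma-voom (223), DESeq2 (348), no lane term (185) and no exercise term (193) stayed within 1.5 times. The fit of 12 libraries with lane (235) was bound to stay close, since its lane term fits the libraries of lanes 7 and 8 exactly. A replicate block in place of lane gave 153 calls and 67 when added to lane; 133 and 60 of them were among the 237, and the numbers are not shown to pair samples. Leaving out 1 library gave 83 (without wild-type treadmill 2) to 263 (without KO treadmill 3). The lane interaction called 127 genes with no filter, 11 with DESeq2 and 0 to 5 without 1 library. It called 5 genes with the replicate block in place of lane and 32 with the block added to lane, an alternative chosen after seeing the data; lane and number coincide in wild type, and KO replicate 2 alone lies in both lanes. The exercise interaction called 144, 4 and 0 to 3, and 0 with the replicate block in place of lane. Lane 3 alone called 146 without the exercise term, 730 with no filter, 122 with DESeq2, and 5 (without KO treadmill 1, wild-type sedentary 2 or wild-type treadmill 2) to 603 (without KO sedentary 2). Lane 4 alone called 31 without the exercise term, 172 with no filter, and 84 to 190 without 1 library. A lane with 1 library left in a group assumes that it varies like the others. The cause of these shifts was not tested. Of the 237 genes, 1 changed sign under any of these settings, Serpinf1, between -0.08 and 0.31. Low genes such as Gys2 rest on few reads, and 6 against 4 libraries limit the precision of small changes.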

Other observations

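Gene families outside the lists were chosen after their values were seen and are given as values. All 4 CPEB genes, which encode RNA-binding regulators of translation, fell in KO: Cpeb1 and Cpeb2 by 0.49 and 0.67 on the log2 scale, both called without each library in turn, and Cpeb3 and Cpeb4 by 0.32 and 0.25, calls lost without 3 and 6 libraries. In the control of glycolysis, Pfkfb4 fell by 0.67, while Pfkfb3 rose by 0.54, a call lost without 4 libraries and with overlap of the genotypes. In polyamine metabolism, Amd1 and Sms fell by 0.65 and 0.22, the second call lost without 9 libraries; 82.8% of the exon sequence of Amd1 and 18.8% of that of Sms is shared with other genes.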
